A study of Mus musculus with 2 samples.

Results

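The nuclear-encoded respiratory chain genes are the genes in the cell nucleus that encode subunits of complexes I to IV and of ATP synthase. They were taken by symbol: protein-coding genes named Nduf a, b, c, s or v, Cox 4 to 8 with a letter, Atp5, Uqcr or Sdh a to d, without the Ndufaf assembly factors. This gave 86 genes of 55536 annotated ones and of 22015 nuclear protein-coding genes. They carry 85 symbols, because Atp5o has 2 entries, and they lie on 19 chromosomes. There were 36 genes of complex I, 4 of complex II, 8 of complex III, 20 of complex IV and 18 of ATP synthase. The symbol rule does not take in every subunit gene: Cyc1, of complex III, was read among the electron carriers instead. RNA came from the nucleoplasmic fraction of bone marrow-derived macrophages of C57BL/6J mice, primary cells grown from marrow and given Lipid A, the active lipid of bacterial endotoxin, at 100 ng/ml for 30 min. Ribosomal RNA was depleted and total RNA was sequenced in 1 group of 2 libraries, made from 1 µg of RNA (replicate 1) and 500 ng (replicate 2). The sample descriptions name the fraction nucleoplasmic while other label fields say nuclear, so whether chromatin-bound RNA was included is not settled by the labels. They call the libraries biological replicates, with different biosamples but the same donor entry, and give neither age nor sex, so the spread between them may be technical. No untreated sample was analysed here, so the values are levels after Lipid A and no response to it was measured.

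The respiratory chain sits in the inner mitochondrial membrane. Complexes I and II take electrons from NADH and succinate, complex III passes them to cytochrome c, complex IV passes them to oxygen, and ATP synthase uses the resulting proton gradient to make ATP. Complexes I, III and IV and ATP synthase combine subunits made in the cytosol from nuclear genes with subunits made inside the organelle from mitochondrial DNA, while complex II is wholly nuclear-encoded. In macrophages, endotoxin is known to shift metabolism towards glycolysis, and succinate oxidation by complex II has been studied as a source of reactive oxygen species. RNA in the nucleoplasm is a mixture of unspliced, partly spliced and finished transcripts, so its level is not the level of mRNA available for translation.

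The libraries held 16037242 and 14906686 expected counts, the authors' model-based read counts per gene. All 7 macrophage markers were detected, with a summed level of 2594 TPM in replicate 1 and 3339 TPM in replicate 2. TPM, the transcript level per length, is scaled to 1 fixed total in every library. T cell, erythroid and male germ cell markers (3 each) had 0 reads in both libraries. None of 3 B cell, 3 fibroblast and 5 muscle markers was detected, and 1 of 4 neutrophil markers was, with at most 9 reads for any of the 4. The 13 mitochondrially encoded subunits took 2.09% of the reads in replicate 1 and 6.08% in replicate 2. Cytosolic ribosomal protein genes took 0.178% and 0.244%.

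Promoters were examined for short motifs of regulators known for respiratory genes. RefSeq windows (build GRCm38.p6) were found for 69 of the 86 genes, as 74 windows of the 250 bases before the annotated start. The core of the site of NRF1, a factor known for activating respiratory genes, was searched as CGCATGCG, which reads the same on both strands. It was in 7 of 74 windows, or 9.46%, beside 1.55% of all 32851 windows in the table and 3.53% of the 9612 windows of detected protein-coding genes. The ETS site CCGGAAGT, bound by the GABP factor also called NRF2, was in 3 windows, or 4.05%, beside 2.88% and 6.62%. The YY1 site AAGATGGC was in 1 window, or 1.35%, beside 1.56% and 2.21%. Both of these were searched on both strands, and none of the matches overlapped another. Median GC was 56.2% in the member windows, 52.4% in all windows and 60% in windows of detected protein-coding genes. A match describes letters and says nothing about binding. The 7 stretches with the NRF1 core are shown because this motif was the one with the larger share among these genes than in both backgrounds. They are from RefSeq, 5′ to 3′ on the strand of the gene, with the core in capitals.
Cox6a1, chr5:115349090-115349141, minus strand: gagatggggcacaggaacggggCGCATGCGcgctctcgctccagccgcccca
Atp5l, chr9:44920954-44920992, minus strand: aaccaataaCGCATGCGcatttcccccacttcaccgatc
Atp5j, chr16:84835094-84835145, minus strand: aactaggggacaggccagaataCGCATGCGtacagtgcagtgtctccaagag
Atp5g2, chr15:102671059-102671110, minus strand: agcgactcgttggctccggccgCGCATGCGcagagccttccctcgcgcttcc
Atp5k, chr5:108434419-108434470, minus strand: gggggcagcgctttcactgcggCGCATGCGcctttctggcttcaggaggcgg
Ndufa11, chr17:56717681-56717732, plus strand: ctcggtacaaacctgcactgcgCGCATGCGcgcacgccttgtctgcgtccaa
Ndufa8, chr2:36049339-36049369, minus strand: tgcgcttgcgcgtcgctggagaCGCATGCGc

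The core lay from 9 bases (Ndufa8) to 241 bases (Atp5l) before the RefSeq start. The levels rest on other gene models. By their spans the stretches of Ndufa8, Atp5j and Atp5g2 lay inside the gene, and that of Atp5k lay partly inside. The 7 genes did not share a level: Atp5l, Cox6a1 and Atp5j stood at means of 13.3, 11.6 and 11.2 TPM, Atp5g2 at 4.98, and Atp5k, Ndufa11 and Ndufa8 at 2.77, 2.75 and 2.37 TPM. Atp5j, for coupling factor 6 of ATP synthase, also held the YY1 match. It overlaps Gabpa, the gene of the GABP DNA-binding subunit, on the opposite strand. The 3 windows with an ETS match were those of Uqcrh, Atp5h and Uqcr11.

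Most of these genes were detected, at low to moderate levels. A gene counted as detected when its TPM was 1 or more in each library. By this limit 76 of 86 genes were detected, where the share over all nuclear protein-coding genes was 42.4%. Over all 86 genes the median of the mean TPM was 5.83, with 5.07 TPM in replicate 1 and 6.13 TPM in replicate 2. The 76 detected genes had a median of 6.70 TPM, beside 8.58 TPM for the 9326 detected nuclear protein-coding genes. A mean of 10 TPM or more was reached by 21 genes. In a bulk sample, fewer cells with a transcript and less of it per cell cannot be told apart. Together the 86 genes held 8566 reads in replicate 1 and 11734 in replicate 2. That is 0.0541% of the annotated reads (95% Wilson interval 0.0529 to 0.0552) and 0.0789% (0.0775 to 0.0803), where the intervals cover counting error only.

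**Figure D1:**
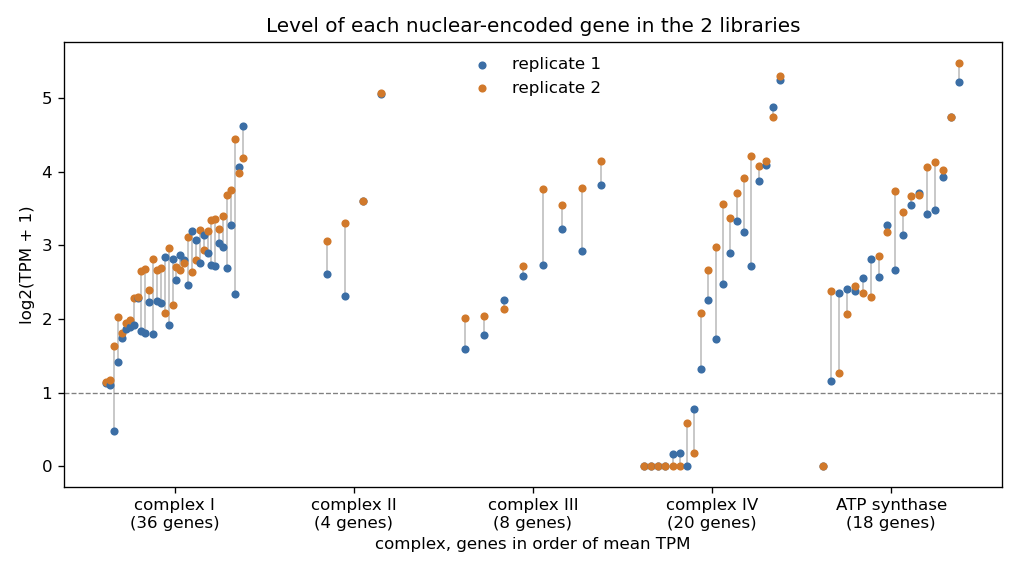
Level of each of the 86 genes as log2(TPM + 1) on the vertical axis, grouped by complex and ordered by mean TPM along the horizontal axis. Blue points are replicate 1, orange points replicate 2, a grey line joins the values of a gene, and the dashed line marks 1 TPM. Of the 10 genes that were not detected, 8 are in complex IV, and Atp5b, Cox4i1 and Sdha stand highest in their complexes.

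In complex I, the entry point for NADH electrons, 35 of 36 genes were detected and the median was 4.97 TPM. Ndufs1, a core subunit that carries iron-sulfur clusters, had 15.8 TPM in replicate 1 and 14.8 TPM in replicate 2. The 7 nuclear core subunits, which carry the electron path, had a median of 7.25 TPM, and the 29 accessory subunits, which stabilise the complex, had 4.71 TPM. The accessory gene Ndufa3 had a mean of 12.5 TPM, but its libraries were far apart, with 13 reads and 4.08 TPM in replicate 1 and 84 reads and 20.9 TPM in replicate 2. Ndufc1, a small accessory subunit, was lowest by mean, at 1.19 and 1.21 TPM with 6 and 7 reads. The gene not detected was the accessory subunit Ndufb4, which had 0.39 TPM in replicate 1 and 2.11 TPM in replicate 2, a difference resting on 4.82 and 15.4 expected counts. It was singled out after its values were seen.

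All 4 genes of complex II, the succinate dehydrogenase shared with the TCA cycle, were detected, at a median of 8.78 TPM. Sdha, the flavoprotein that oxidises succinate (ENSMUSG00000021577.14, chromosome 13, 74322254 to 74350280), had 32.2 TPM in replicate 1 and 32.7 TPM in replicate 2, from 1117 and 1369 reads. Sdhb, the iron-sulfur subunit, followed with 11.1 and 11.2 TPM. The membrane anchors were lower: Sdhc had 3.96 and 8.84 TPM and Sdhd had 5.13 and 7.34 TPM. Sdha lay above Sdhb, and Sdhb above both anchors, in each library. Sdhc and Sdhd changed order between the libraries.

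Complex III, which passes electrons from ubiquinol to cytochrome c, had all 8 genes of the symbol rule detected at a median of 7.22 TPM. Uqcrh, the hinge subunit, was highest with 13.1 TPM in replicate 1 and 16.8 TPM in replicate 2. The small subunit gene Uqcr11 had 6.61 and 12.8 TPM and the core gene Uqcrc1 had 8.33 and 10.7 TPM, so their order turned between the libraries. Uqcrc2, the partner of Uqcrc1 in the core of the complex, was lowest with 2.02 and 3.03 TPM. The level of Uqcrc1 was above that of Uqcrc2 in both libraries, although the proteins pair in the assembled complex.

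Complex IV, cytochrome c oxidase, was split by isoform. All 12 widely expressed forms were detected, at a median of 10.8 TPM, and none of the 8 tissue-specific forms was. Cox4i1, the common form of the subunit tied to regulation by ATP (ENSMUSG00000031818.12, chromosome 8, 120668222 to 120674207), had 36.8 TPM in replicate 1 and 38.2 TPM in replicate 2, from 286 and 422 reads. Its hypoxia- and lung-linked partner Cox4i2 had 1 read and 0 reads. Cox7c had 28.3 and 25.8 TPM and Cox5a had 16.1 and 16.8 TPM, both subunits without a second form among these genes.

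The other isoform sets had the same split. Cox6a1 had 33 and 135 reads, where the heart and muscle form Cox6a2 had 1 and 0. Cox6b1 had 54 and 98 reads, where the testis form Cox6b2 had 2 and 1. In the next set 2 widely expressed forms were read. Cox7a2 had 19 and 42 reads and Cox7a2l, which is known for joining complexes III and IV into supercomplexes, had 131 and 218, where the muscle form Cox7a1 had 0 and 2. Cox8a had 25 and 78 reads, where Cox8b and Cox8c had 0 in both libraries. Cox7b had 20 and 33 reads and Ndufa4, once assigned to complex I, had 17 and 59, where Cox7b2 and Ndufa4l2 had 0. All the tissue-specific forms were thus at or under 3 counts per library, the floor that a count of 0 allows, so no fold between forms is given and absence is not shown. The muscle markers Ckm, Myh7, Myh6, Acta1 and Tnnt2 had at most 2 reads, with 3 of the 5 at 0, and the germ cell markers had 0. In the second quantification, made from the reads directly, Cox4i2 received 19 and 25 estimated counts and Cox7a1 16 and 27, so these 2 entries depend on how reads were assigned.

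ATP synthase, or complex V, had 17 of 18 genes detected at a median of 8.59 TPM. Atp5b, the catalytic beta subunit (ENSMUSG00000025393.12, chromosome 10, 128083273 to 128090391), was the highest of all 86 genes by mean, with 36.1 TPM in replicate 1 and 43.7 TPM in replicate 2, or 39.9 ± 5.35 TPM (SD, n = 2). Its partner in the catalytic head, Atp5a1, had 25.8 TPM in both. Atp5h, a stalk subunit, had 14.2 and 15.3 TPM. Each of these 3 differed little between the libraries on the TPM scale.

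The 3 genes of the membrane rotor, or c-ring, encode the same mature protein with different import sequences, and they differed in level. Atp5g3 had 12.1 TPM in replicate 1 and 11.9 TPM in replicate 2. Atp5g2 had 6.03 and 3.93 TPM, and Atp5g1 had 1.24 and 4.23 TPM, so these forms changed order between the libraries while Atp5g3 was highest in each. That turn was lost when the reads of pseudogene copies were added, a step chosen after seeing the data. Atp5g2 then stood at 5.02 TPM in replicate 2, above Atp5g1 at 4.33 TPM with its own copies added. The second quantification, without that step, kept the turn, with 1.14 and 1.04 TPM for Atp5g2 and 0.83 and 1.56 TPM for Atp5g1. The gene not detected was the second Atp5o entry, a gene model that overlaps the first and had 0 reads, where the first had 41 and 42 reads. Pseudogenes matter here: 20 of the 86 genes have a pseudogene copy at 90% identity or more over at least 50% of the transcript. There were 43 copies in all, with 12 for Atp5l, 5 for Atp5h and 4 each for Uqcrb and Atp5g1. Most copies had few reads or none, with exceptions named after their values were seen. Gm15920, a copy of the complex I gene Ndufa12, had 27.9 and 26.1 expected counts where Ndufa12 itself had 20.1 and 31.9. Gm13171, a copy of the complex I gene Ndufb7, had 17 and 4 where Ndufb7 had 45 and 69. Gm10175, identical to Atp5g2 over the aligned part, had 0 and 11.7 where Atp5g2 had 46 and 42.3.

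The libraries were compared gene by gene after TMM scaling, which sets the bulk of genes to equal abundance. Replicate 2 was divided by replicate 1 for the 51 genes with a mean count of 50 or more, and the other 35 had too few reads. These ratios compare 2 libraries of 1 group, so no p-value can be given. The scaled ratio was above 1 for 48 of the 51 genes, where the share over nuclear protein-coding genes was 50%. The median log2 ratio was 0.60, a 1.51-fold higher count in replicate 2, beside 0.00 over 8993 nuclear protein-coding genes. Among the 3 genes below 0 were Cox6c at -0.09 and Ndufv1, the NADH-binding core subunit, at -0.37, both named after their values were seen. For comparison, the common biological coefficient of variation between the libraries was 0.304 over 14470 genes.

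On the TPM scale the shift was smaller. The median log2 ratio of TPM was 0.20 over the 51 genes with 37 above 0, and the median over nuclear protein-coding genes was -0.40, a general fall of TPM in replicate 2. Relative to that median the members stood at 0.60 on both scales. The mitochondrially encoded subunits, with summed TPM of 24739 and 64541, took a larger part of the TPM total in replicate 2.

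The ratio differed by complex in these libraries. The median log2 ratio was 0.43 for 11 genes of ATP synthase, 0.52 for 21 of complex I, 0.64 for 4 of complex II, 0.80 for 9 of complex IV and 0.86 for 6 of complex III. Within complex I the 7 core genes had a median of 0.21 and the 14 accessory genes 0.55. These medians are descriptions of few genes, and the differences between complexes were not tested.

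A gene counted as beyond 2-fold when the scaled ratio passed 2 in either direction and the authors' credibility bounds, scaled alike, did not overlap. This took in 6 of 51 genes as higher in replicate 2, where the share over nuclear protein-coding genes was 4.38%, and 0 genes as lower, where it was 2.12%. All 6 rest on 25 to 44 reads in replicate 1, fewer than the limit set on the mean count. Each thus entered the tested set only through its reads in replicate 2, the library in which it was called higher. Cox6a1 (chromosome 5, 115345642 to 115348981) had 33 and 135 reads, a log2 ratio of 2.10. Cox8a, the common form of the smallest complex IV subunit, had 25 and 78 reads, a log2 ratio of 1.71. This call was lost in the quantification made from the reads directly, where Cox8a had 124 and 186 estimated counts, a log2 ratio of 0.39. Uqcrb, the ubiquinone-binding subunit of complex III, had 30 and 87 reads, a log2 ratio of 1.60. Cox6a1 and Uqcrb stood at 1.93 and 1.53 in that quantification. All 3 genes encode small subunits, and their pseudogene copies held at most 2 reads where any were found.

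The other 3 genes were in complex I. Ndufv2, the core subunit that accepts electrons beside Ndufv1, had 44 and 106 reads, a log2 ratio of 1.33. Ndufb10, an accessory membrane-arm subunit, had 41 and 84 reads, a log2 ratio of 1.10, and lost its call in the quantification from the reads directly, with 78.1 and 121.6 estimated counts and a log2 ratio of 0.45. Ndufc2, also of the membrane arm, had 41 and 83 reads, a log2 ratio of 1.08. Of the 6 genes 4 were beyond 2-fold in both quantifications. Just outside the limits, Uqcrc2 at 1.08 and Cox5b at 1.05 passed 2-fold but had overlapping bounds. Ndufa3 at 2.76 failed on both limits, with a mean just under 50 counts and overlapping bounds.

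**Figure D2:**
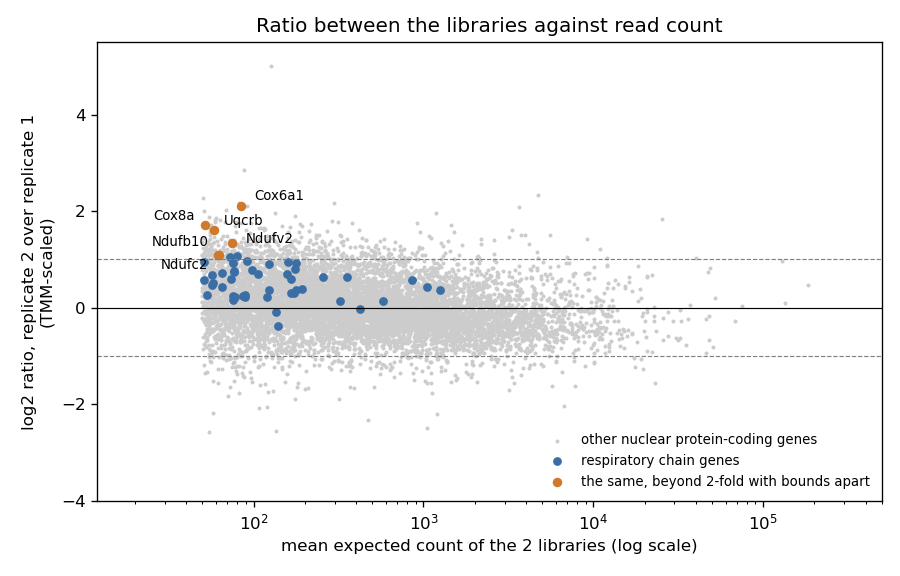
TMM-scaled log2 ratio of replicate 2 over replicate 1 on the vertical axis against the mean expected count on a log scale, for genes with a mean count of 50 or more. Grey points are other nuclear protein-coding genes (those with 0 reads in a library cannot be drawn), blue points the respiratory chain genes, orange points the 6 beyond 2-fold with bounds apart, and dashed lines mark 2-fold. Of the 51 respiratory chain genes, 48 lie above 0.

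Read count and length moved with the ratio. Other nuclear protein-coding genes at a mean of 50 to 100 counts had a median log2 ratio of 0.25 over 1281 genes, with 64.9% above 0 and 8.35% beyond 2-fold and higher. The 28 members in that range had a median of 0.73, with 28 above 0 and 6 beyond 2-fold. At 100 to 200 counts the medians were 0.38 for 15 members and 0.19 for 1609 other genes, and above 200 counts they were 0.39 for 8 members and -0.09 for 6052 other genes. These count ranges were chosen after the values were seen. The 25 members with the shorter coding transcripts (405 to 865 nt) had a median of 0.70 and held 5 of the 6 genes beyond 2-fold, and the 26 with longer ones (908 to 4371 nt) had a median of 0.45 and held 1. Spearman's rho between ratio and gene span was -0.229 over 51 members and -0.32 over 8987 nuclear protein-coding genes, across genes that share the same pair of libraries. The part of read count, length, starting RNA and the share of mitochondrially encoded RNA in the ratio was not tested.

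The rest of the pathway was read from lists chosen for function. Of 44 assembly factors, the proteins that build the complexes without staying in them, 31 were detected at a list median of 2.27 TPM, led by Cox16 at 12.6 and Surf1 at 12.3 TPM, both for complex IV. All 20 electron carriers and entry points were detected, with a list median of 5.21 TPM, led by Coq10b at 32.2 and Coq10a at 16.8 TPM, which bind coenzyme Q. All 17 TCA cycle genes were detected, with a list median of 10.6 TPM. Dlst, a subunit of the 2-oxoglutarate dehydrogenase complex, had 62.4 TPM and Idh3b, of isocitrate dehydrogenase, 25.9 TPM. Of 15 biogenesis regulators 12 were detected at a median of 6.75 TPM, led by the mitochondrial DNA polymerase gene Polg at 21.3 and the nuclear receptor gene Esrra at 16.1 TPM. All 12 matched genes of carriers and cristae, of 14 listed, were detected at a median of 18.8 TPM. Slc25a3, which imports phosphate for ATP synthase, had 171 TPM and the uncoupling-family gene Ucp2 had 50.6 TPM.

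The lists' median ratios between the libraries lay closer to 0 than that of all subunits together. The core genes of complex I, at 0.21, lay below the assembly factors and the carriers and cristae. The median log2 ratio was 0.29 over 19 assembly factors, 0.04 over 17 electron carriers, 0.14 over 16 TCA cycle genes, 0.04 over 12 biogenesis regulators and 0.31 over 11 genes of carriers and cristae. Beyond 2-fold with bounds apart were the assembly factor genes Coa5 and Tmem126b and the cytochrome c gene Cycs, all higher in replicate 2 and named after their values were seen. No gene of these 5 lists was beyond 2-fold and lower. Among 86 tested ribosomal protein genes the median was 0.61, with 70 above 0 and 16 beyond 2-fold and higher, close to the median of the respiratory chain genes. Gene span differed too. Its median over tested genes was 17832 to 27603 bases in the 5 lists, 8186 in the respiratory chain genes and 3760 in the ribosomal protein genes. The part of span in these differences was not tested.

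The subunits made inside the mitochondrion were of another size. All 13 were detected, at a median of 2491 TPM, and all 13 had a ratio above 1, at a median log2 ratio of 2.27. Of these, 10 were beyond 2-fold and higher in replicate 2. mt-Atp8, for a membrane subunit of ATP synthase, had 902 and 12005 reads, a log2 ratio of 3.80. mt-Co1, the catalytic subunit of complex IV, had 153788 and 376158 reads, a log2 ratio of 1.36. Nuclear and mitochondrial subunits of the same complexes were thus both higher in replicate 2, by different amounts. Whether the mitochondrially encoded RNA had a part in the ratios of the nuclear genes was not tested.

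**Figure D3:**
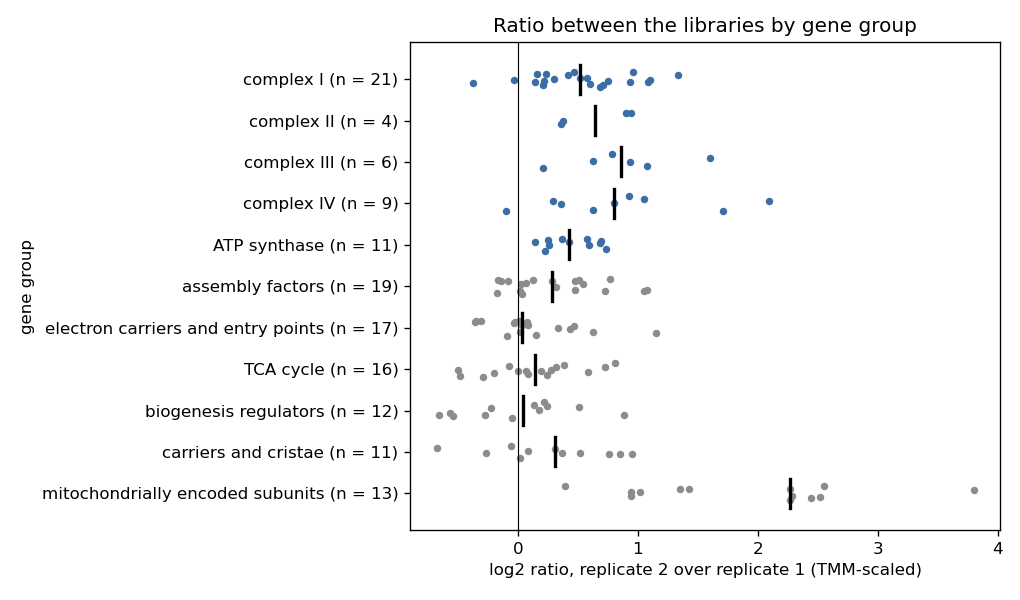
TMM-scaled log2 ratio of replicate 2 over replicate 1 on the horizontal axis for each gene with a mean count of 50 or more, by complex (blue) and by pathway list (grey). Points are genes, spread vertically only for legibility, and black bars are medians, which run from 0.43 to 0.86 for the 5 complexes and stand at 2.27 for the mitochondrially encoded subunits.

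Transcripts of the annotated class retained intron, which keep an intron of the coding form, were read from the first transcript table. Of the 86 genes 47 have such a transcript, and 29 of these reached 5 TPM in both libraries. The median share of a gene's TPM in such transcripts was 17.4% over the 29 genes, with 25.7% in replicate 1 and 11.7% in replicate 2. Over 4020 nuclear protein-coding genes under the same limits it was 27.0%, with 27.6% and 25.9%. The share was lower in replicate 2 for 20 of the 29 genes, where the share over nuclear protein-coding genes was 55.5%. Complex I did not share this direction: 5 of its 11 genes were lower in replicate 2, and its median was 25.7% in replicate 1 and 27.2% in replicate 2. In ATP synthase and complexes III and IV, 15 of 17 genes were lower in replicate 2. Whether the complexes differ was not tested. Counted in reads rather than TPM, the medians were 23.5% and 13.5% for the members and 14.8% and 14.0% for nuclear protein-coding genes. So the members stood below the other genes in TPM here, but above them in reads in replicate 1. In TPM of the second quantification the medians were 32.9% and 19.9% for the members and 32.6% and 30.1% for nuclear protein-coding genes. There the members stood below only in replicate 2. Such counts do not separate a retained intron from RNA not yet spliced.

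The mean share of TPM was over 50% in 4 of the 29 genes, and in 609 of 4020 nuclear protein-coding genes. Ndufa5, an accessory subunit of complex I, had 65.5% in replicate 1 and 95.2% in replicate 2. Its retained-intron transcript of 433 nt received 12.9 of 16 reads and 41.9 of 48, so few reads stand behind the share. Ndufab1, the mitochondrial acyl carrier protein that is also a complex I subunit, had 68.1% and 82.0% from 126 and 230 reads. Atp5j had 62.4% and 87.0%. Ndufa10 had 56.1% and 51.1% from 153 and 180 reads. Ndufs1 followed with 36.7% and 41.9% from 563 and 595 reads. Of these 5 genes, 4 were higher in replicate 2 on the TPM scale, with Ndufa10 the exception. In share of reads Ndufa10 had 27.7% and 35.9%, under 50% and higher in replicate 2 like the other 4. In the quantification from the reads directly Ndufa5 and Atp5j were higher in replicate 2 and Ndufa10 was lower. There Ndufab1 had 67.9% in both libraries and Ndufs1 had 49.7% in both.

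The lowest shares of TPM were those of Ndufb8, Cox7a2l, Cox6b1, Cox6a1 and Atp5e, from 2.34% to 5.99% in the mean of the libraries. In share of reads Atp5e, the epsilon subunit of ATP synthase, was not low, with 42.6% and 18.4%. Some genes moved widely. Cox5b had 67.4% and 6.55%, from 49 and 97 reads in all, and was named after its values were seen. In Atp5l, chosen likewise, the scale mattered: a retained-intron transcript of 6310 nt received 279.6 and 226 of the gene's 314 and 331 reads, while all such transcripts of Atp5l made up 26.5% and 14.1% of its TPM. By complex the medians were 26.2% over 11 genes of complex I, 20.3% over 7 of ATP synthase, 15.3% over 3 of complex III and 7.85% over 7 of complex IV, and Sdha, the one complex II gene, had 28.6%.

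**Figure D4:**
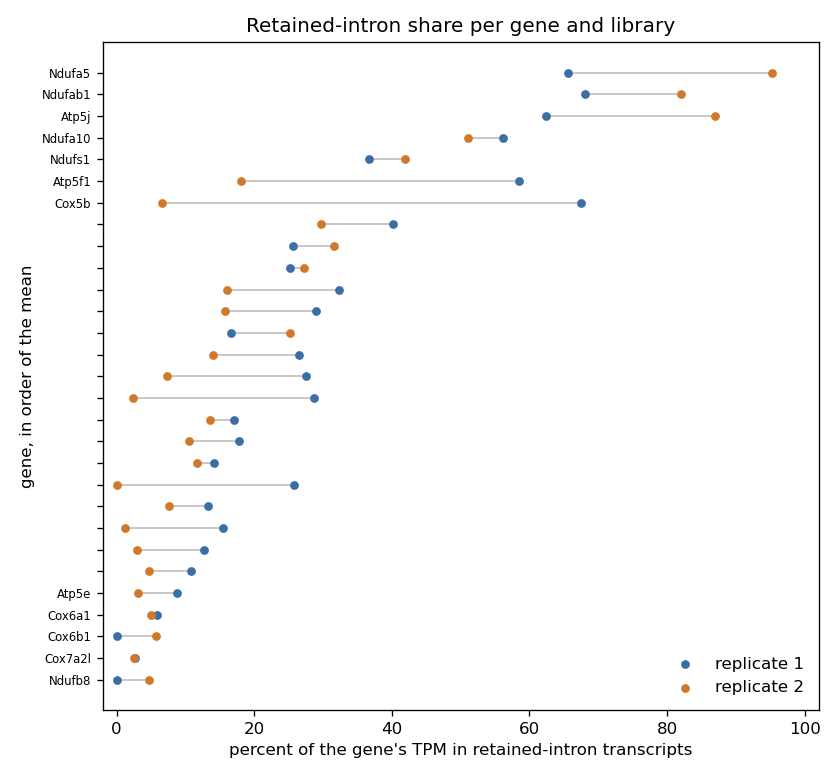
Retained-intron share, in percent of the TPM of a gene, on the horizontal axis, for the 29 genes at 5 TPM or more in both libraries, ordered by the mean on the vertical axis, with names for the 7 highest and the 5 lowest. Blue points are replicate 1, orange points replicate 2, and a grey line joins the values of a gene. The share was lower in replicate 2 for 20 of the 29 genes, and Ndufa5, Ndufab1, Atp5j and Ndufa10 have means over 50%.

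Protein-coding transcripts held a median of 82.3% of a gene's TPM over 41 members, with 74.9% in replicate 1 and 88.8% in replicate 2. Over 5680 nuclear protein-coding genes it was 70.9%, with 70.2% and 72.7%. The share was above 90% for 15 of the 41 members and under 50% for 8. Among the 5680 nuclear protein-coding genes it was above 90% for 1438 and under 50% for 1292. The most abundant transcript was a protein-coding one in 73 of the 81 members with reads, a retained-intron one in 6 and one marked for nonsense-mediated decay in 2. Ndufa3 was one of these: its 343 nt transcript of that class held 59.8% of the TPM in replicate 1 and 72.2% in replicate 2.

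The direct-from-reads quantification assigned reads in another way and gave lower TPM for most of these genes. Over 47 members at 5 TPM or more the median log2 ratio of its TPM to that of the gene table was -0.98, beside -0.82 over 6240 nuclear protein-coding genes. Relative to that latter median, Ndufs8, a core subunit of complex I, stood highest at 1.45, with 278 and 312 estimated counts there and 60 and 87 in the gene table. Ndufa7 at 1.21, Cox8a at 0.88, Atp5j at 0.71 and Ndufs7 at 0.66 followed. At the other end Atp5e stood at -0.59, Ndufa3 at -0.56, Ndufa1 at -0.50 and Ndufa5 at -0.47. The level of Ndufs8 thus depends on the quantification more than that of most members.

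Several levels are uncertain because genes overlap. A gene on the opposite strand overlapped 31 of the 86 genes and another on the same strand overlapped 13, and the use of strand in counting is not known from the labels or the files. Cox4i1 lies within Gm20388, a readthrough model on the same strand with 242 and 630 reads, more than Cox4i1 itself in replicate 2. Cox6c lies opposite Vps13b, which had 10195 and 6073 reads, and Atp5j opposite Gabpa, with 392 and 412. Expected counts were not whole for 17 of the 86 genes, so some reads were shared out between genes. Across 77 members at a mean of at least 1 TPM, Spearman's rho of TPM between the libraries was 0.789, and across 9770 nuclear protein-coding genes it was 0.944. The nuclear protein-coding set takes in genes of up to 4000.5 TPM, where the highest member stood at 39.9 TPM.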

How the data were processed

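Values per gene and per transcript (2 kinds of transcript table) use mm10 and GENCODE M21, as the labels' deposited text files say. The authors deposited expected counts and TPM per gene and transcript, and bounds of an interval of TPM (a score of unstated level), per the file headers. IsoPct in the first transcript table is the transcript's percent of its gene, as deposited, per the file headers. That table came from a transcriptome alignment and the second, of estimated counts and TPM, from the reads directly, as the same deposited text states. For the aligner, the quantifier and the use of strand: not given in the sources.

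Of the rows, 26345 without a gene name were left out, with 1.19% of the counts in replicate 1 and 0.213% in replicate 2. The 55536 annotated genes held 15846212 and 14874879 counts, and the other quantification held 21932480 and 25815351. Expected counts were rounded, and TMM factors over all annotated genes came from edgeR 4.0.16 under R 4.3.3. DESeq2 1.42.0 size factors were an alternative. TMM-scaled log2 ratios were tested on simulated data, with a small constant added to each count that the reported ratios do not have. The rule for genes beyond 2-fold was not part of that test. With 1 group of 2 libraries there was no test and no p-value. Detection took TPM of at least 1 in both, ratios a mean of at least 50 counts, and shares of isoforms TPM of at least 5. Pseudogene copies, of any annotated pseudogene class, were found with blastn 2.17.0. Tables were read with pandas 2.3.3, correlations were computed with scipy 1.17.1 and plots were drawn with matplotlib 3.10.9.

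Named genes were, in each complex, the 3 genes highest in mean TPM and the lowest one. They also took in isoform sets, the Sdh genes, genes beyond 2-fold, genes with 0 counts and the 2 highest of each list. The last were the 5 highest and 5 lowest retained-intron shares and the 5 largest ratios per direction between quantifications. A gene within this rule is not reported here. Genes named for a motif, an overlap or a pseudogene follow from those searches. The members, lists and rules were chosen with earlier results of these data known.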

Additional observations from a re-analysis of the deposited data

How the results depend on the processing

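The number detected was 76 to 77 when either replicate was left out and 41 at a TPM limit of 5. The median TPM was 5.07 to 6.13 with a replicate left out, 3.31 in the second transcript table and 6.70 over detected genes alone. The median log2 ratio was 0.20 as a ratio of TPM, 0.74 over 75 genes with a mean count of 10 or more and 0.73 over 78 genes with no filter. Library size, DESeq2 size factors, the second table and TMM without the mitochondrially encoded genes (chosen after seeing the data) gave 0.53 to 0.63. The number beyond 2-fold was 16 of 75 genes at a mean count of 10 or more and 16 of 78 with no filter. It was 13 of 66 in the second table, where no bounds were used and Cox8a and Ndufb10 were not among them. The share over nuclear protein-coding genes was not counted at these settings, so these numbers stand without a background. All members beyond 2-fold were higher in replicate 2 under each setting run. The median retained-intron share, 17.4% in the main setting, was 11.7% to 25.7% with a replicate left out and 25.8% in the second table. It was 18.4% at gene TPM of at least 1 and 17.8% in share of counts. The median protein-coding share, 82.3% in the main setting, was 74.9% to 88.8% with a replicate left out and 75.5% in the second table. The median log2 ratio of the quantifications was -0.96 at a TPM limit of 1, beside -0.98. Ratios cannot be formed with a replicate left out. No paired analysis was possible because there was 1 group. The small number of reads limits the low genes most: 25 detected genes had a mean under 50 counts.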
